A study of Mus musculus with 16 samples.

Results

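Mouse embryonic fibroblasts labelled as overexpressing DR (DR MEF) were compared with wild-type fibroblasts (WT MEF) by RNA sequencing, which uses 2 of the 16 samples of the series. Both libraries were labelled as OG2 transgenic fibroblasts at passage 2 on a mixed 129SVJ, C57B6 and CBA background. The OG2 transgene, a fluorescent reporter driven by Oct4 regulatory sequence, was therefore shared by both sides. The labels do not expand DR, and DR MEF is taken here as the vector condition of the series. They give neither the time between vector and harvest nor whether the fibroblasts were isolated, cultured or sequenced together, and they print a slightly different CBA share for each library. The vector, the culture and the library preparation therefore cannot be told apart in this comparison. With 1 library a side there is no replicate check, no p-value was computed, and every difference below is between these 2 libraries. Levels are also given for fibroblasts overexpressing c-Jun, c-JunDN or Jdp2 and for fibroblasts given DR together with c-Myc, Sox2 and Klf4 and taken after 3 days (KSM DR), each as 1 library.

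Cells that sense foreign nucleic acid through receptors such as RIG-I or the Toll-like receptors switch on type I interferon genes. Secreted interferon signals through the receptor subunits Ifnar1 and Ifnar2 and the kinases Jak1 and Tyk2 to a complex that holds Stat2 and Irf9 and binds the interferon-stimulated response element (ISRE) in the promoters of antiviral genes. Cultured fibroblasts also form stress fibres and focal adhesions, and their actin state and stretch feed into the SRF and YAP/TEAD transcription programs, which drive contractile, matrix and growth genes.

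Expected counts were summed per library and scaled by TMM, and the scaled values are given as CPM. WT MEF held 21415021 counts and DR MEF 2094306, a 10.2-fold difference in depth. The sum of 3 counts, used as the lowest level that can be told from 0, corresponds to 0.183 CPM in WT MEF and 1.45 CPM in DR MEF. Of 20325 genes in the table, 10964 reached 5 CPM in 1 of the 2 libraries and are called measured. A gene at 0 in WT MEF could pass only by being high in DR MEF, so among genes low in WT MEF the filter itself selects rises, and the converse holds for falls. A change is log2((CPM + 1) in DR MEF / (CPM + 1) in WT MEF), which understates the change of low genes, and a gene is called higher or lower at 2-fold. Folds without the pseudocount carry an exact 95% interval for counting error only. By this rule 1048 genes (9.56% of the measured genes) were higher in DR MEF and 1143 (10.4%) were lower, while 8773 were neither. At 4-fold the numbers were 215 higher and 99 lower. Rises were 47.8% of the calls with TMM and 80.3% when libraries were scaled by their totals alone.

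**Figure D1:**
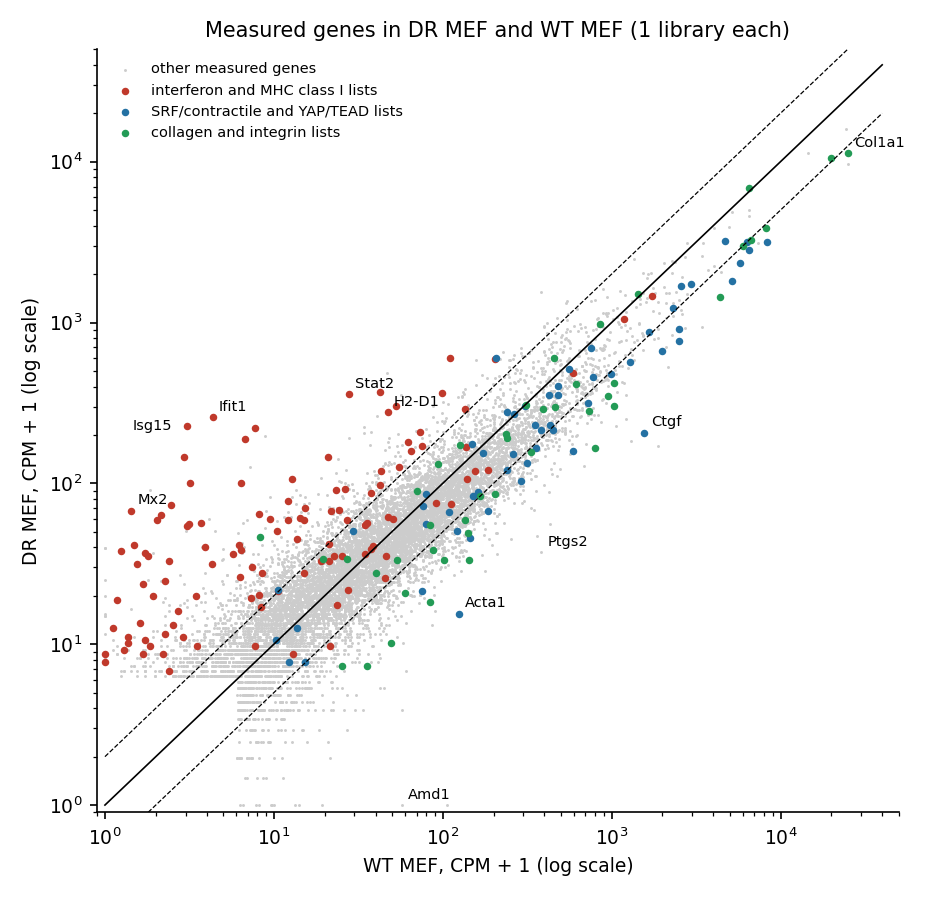
Each point is 1 measured gene, with its CPM + 1 in WT MEF (x axis, log scale) and in DR MEF (y axis, log scale). The solid line marks equal values and the dashed lines 2-fold. Red points are the members of the interferon and MHC class I lists, 86 of which lie above the upper dashed line, and blue and green points are contractile, YAP/TEAD, collagen and integrin genes, many of which lie below the lower one.

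Changes between the 2 libraries went with transcript length. In 5 groups of measured genes from shortest to longest, the median log2 change was 0.44, 0.04, -0.16, -0.33 and -0.54. The shortest group held 459 genes higher and 35 lower, and the longest 74 higher and 498 lower. A slope of this kind also separated an embryonic stem cell line carrying inducible c-Jun, without doxycycline, from WT embryonic stem cells, with 0.20 in the shortest group and -0.54 in the longest. That pair shares no library with the fibroblast comparison, but its WT library was also the deeper one. Against DR MEF, the medians of the c-JunDN fibroblasts ran from 0.02 to 0.00 and those of the c-Jun fibroblasts from -0.01 to 0.04. KSM DR against DR MEF, with no WT library, ran from 0.16 to -0.11. Counts over lists are therefore given below as measured and again with each change centred on the median of its length bin (20 bins), a setting chosen after the slope was seen. Centring gave 1004 genes higher and 623 lower, of which 732 and 543 were also called without it, and rises were then 61.7% of the calls. List counts below are to be read against the shares over all measured genes. These were 9.56% higher and 10.4% lower before centring, and 1004 and 623 of 10964 genes after it. A list count near these shares says nothing particular to the list.

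**Figure D2:**
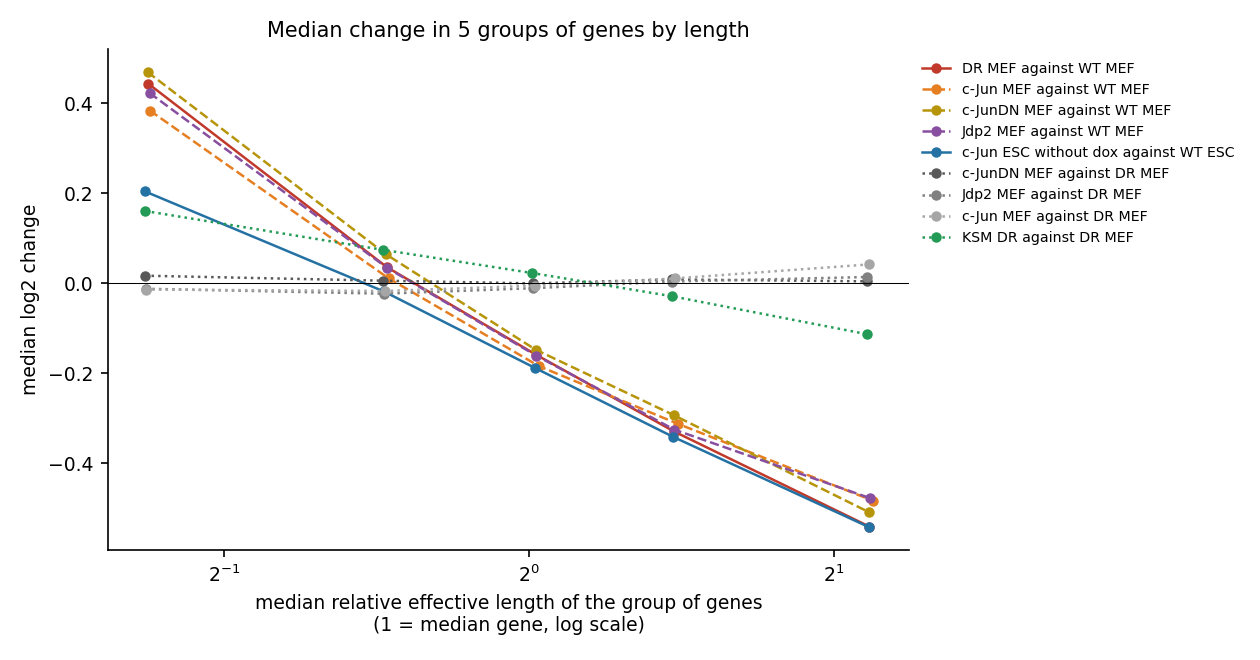
Median log2 change (y axis) of 5 groups of genes ordered by relative effective length (x axis, log scale, 1 is the median gene) for 9 pairs of libraries. The pairs that set a library against WT MEF or WT ESC slope downwards, from 0.44 to -0.54 for DR MEF, while c-Jun, c-JunDN and Jdp2 fibroblasts against DR MEF stay near 0. KSM DR against DR MEF, a pair without a WT library, slopes from 0.16 to -0.11.

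The genes that stood highest in DR MEF relative to WT MEF were interferon-inducible. All 15 of the named genes with the largest rise are known interferon targets or close relatives of such genes: Isg15, Ifit1, Oasl2, Mx2, Usp18, Cxcl10, Irf7, Iigp1, Igtp, Bst2, Trim30a, Ifit3, Trim30d, Ifi202b and Gbp9. Over 6 interferon lists and the MHC class I list, 139 genes were in the table and 115 were measured. Of these, 86 were higher and 1 (Lif) was lower, with a median log2 change of 2.05, against -0.11 over all measured genes. They made up 8.21% of all genes called higher, and 82 were higher after centring on length. Among all measured genes 9.56% were higher. Members such as Isg15, Ifit1 and Mx2, at 2.07, 3.35 and 0.427 CPM in WT MEF, passed the filter of 5 CPM only through DR MEF. The filter itself thus favoured rises in this count and median, and in those of the single lists below.

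Promoter sequence of 6 of these genes is shown because they rose together and because an ISRE-type motif can be read in it. The windows are the 250 bases before the transcription start in RefSeq's promoter table (GRCm38.p6), in the direction of the gene. Capitals mark matches to GAAANNGAAA on either strand, so that the other strand reads TTTCNNTTTC, and overlapping matches run together.
Isg15 (chr4:156200819-156201068, minus strand): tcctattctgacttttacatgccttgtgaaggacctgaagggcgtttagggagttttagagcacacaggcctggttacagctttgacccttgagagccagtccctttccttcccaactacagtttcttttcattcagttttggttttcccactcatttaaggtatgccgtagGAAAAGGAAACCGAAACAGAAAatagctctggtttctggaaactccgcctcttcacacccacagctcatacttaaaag
Ifit1 (chr19:34640639-34640888, plus strand): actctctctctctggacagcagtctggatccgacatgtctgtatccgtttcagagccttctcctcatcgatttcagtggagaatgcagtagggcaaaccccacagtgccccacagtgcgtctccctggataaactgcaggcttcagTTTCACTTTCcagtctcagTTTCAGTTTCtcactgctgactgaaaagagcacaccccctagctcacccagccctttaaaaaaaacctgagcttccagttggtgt
Ifit3 (chr19:34583279-34583528, plus strand): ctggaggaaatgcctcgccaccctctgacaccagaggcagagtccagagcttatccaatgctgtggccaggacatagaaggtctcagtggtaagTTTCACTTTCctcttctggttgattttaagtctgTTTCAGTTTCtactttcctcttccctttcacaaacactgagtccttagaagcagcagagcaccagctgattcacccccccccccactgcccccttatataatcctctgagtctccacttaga
Bst2 (chr8:71537473-71537722, minus strand): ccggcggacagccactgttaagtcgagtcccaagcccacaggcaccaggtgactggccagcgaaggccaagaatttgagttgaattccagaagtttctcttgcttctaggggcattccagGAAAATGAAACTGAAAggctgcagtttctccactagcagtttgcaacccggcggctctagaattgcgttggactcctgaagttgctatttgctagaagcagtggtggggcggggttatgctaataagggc
Igtp (chr11:58199306-58199555, plus strand): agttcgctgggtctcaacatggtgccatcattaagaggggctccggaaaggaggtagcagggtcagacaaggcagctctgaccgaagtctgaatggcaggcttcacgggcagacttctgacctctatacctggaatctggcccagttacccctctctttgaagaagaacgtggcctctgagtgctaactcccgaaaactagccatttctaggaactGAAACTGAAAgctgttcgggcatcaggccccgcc
Stat2 (chr10:128270248-128270497, plus strand): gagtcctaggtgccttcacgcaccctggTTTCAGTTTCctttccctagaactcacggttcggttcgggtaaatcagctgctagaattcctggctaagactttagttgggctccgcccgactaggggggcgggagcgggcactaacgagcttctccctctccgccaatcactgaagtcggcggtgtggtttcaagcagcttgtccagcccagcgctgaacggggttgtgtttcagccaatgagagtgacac

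The Isg15 window holds 3 overlapping matches, which begin between 78 and 66 bases before the start. Bst2 holds 2 overlapping matches, from 130 bases before the start, and Ifit1 and Ifit3 each hold 2 separate ones. Igtp has 1 match, 34 bases before the start, and Stat2 has 1, at 222 bases. Oasl2, 74.6-fold apart between the libraries (95% interval 51.7 to 111), had no match in its window. Over the 300 bases around the start that the table holds, a match was found in 63 of 713 genes called higher that have a promoter there (8.84%) and in 23 of 790 called lower (2.91%). The share was 3.99% among all 27025 genes of the table. Among genes at least 4-fold higher it was 28 of 131 (21.4%), and in the lists it was 8 of 10 inducible GTPases, 16 of 35 antiviral effectors, 4 of 9 sensors and adaptors, 3 of 9 ligands, 5 of 17 MHC class I genes, 2 of 16 transcription factors and receptors and 1 of 6 feedback genes. These lists were drawn up of known interferon targets, so their shares describe the lists. Other motifs were searched too: the AP-1-type motif TGANTCA was in 17 of 131 genes at least 4-fold higher (13.0%) and in 5.95% of measured genes, and the ISRE-type motif was in 3 of 18 YAP and TEAD targets. A match is a string of letters in this window and not a measured binding site.

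Among the sensors and adaptors of the pathway, 7 of 13 measured genes were higher in DR MEF and none was lower, and 7 were higher after centring. Zbp1, a sensor of Z-form nucleic acid, went from 0.183 CPM in WT MEF (3 counts) to 17.9 in DR MEF, a ratio of 97.9 (95% interval 31.0 to 496). Dhx58, the LGP2 helicase, stood at 1.40 and 31.9 CPM, 22.8-fold apart (14.0 to 38.4). The RNA helicases that start the signal differed less: Ifih1 (MDA5) was at 9.39 and 49.8 CPM and Ddx58 (RIG-I) at 61.3 and 181 CPM. Ddx60 and Ifi204 had log2 changes of 3.08 and 3.05, and Tlr3, the endosomal receptor for double-stranded RNA, one of 1.40. The adaptors downstream of these sensors stayed within 2-fold, with log2 changes of 0.07 for Mavs, 0.24 for Tmem173 (STING), 0.63 for Ticam1 and 0.66 for Myd88. The sensors that were higher are themselves known as interferon-inducible genes. Whether this sets them apart from the adaptors here was not tested.

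The interferon genes listed were not seen in either library. Ifnb1, Ifna1, Ifna4, Il28b and Ifng each had 0 counts in WT MEF and DR MEF, which allows up to 0.183 CPM in the first and 1.45 CPM in the second for counting error only. They were also at 0 in the 3 other factor-expressing fibroblast libraries shown and in KSM DR. Of the interferon-induced ligands, Cxcl10, a chemokine for T cells, was at 0.244 CPM in WT MEF (4 counts) and 36.8 in DR MEF, and Cd274 (PD-L1), which restrains T cells, at 0.731 and 9.67 CPM. Ccl5 was under the level for measured genes in both, at 0.122 and 4.35 CPM, and Il15 and Tnfsf10 were also under it.

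Of the transcription factors, receptors and kinases of the pathway, 7 of 15 measured genes were higher and 8 stayed within 2-fold, with the same counts after centring. Stat2 was at 26.9 CPM in WT MEF and 359 in DR MEF, 13.3-fold apart (95% interval 11.8 to 15.0). Irf9, its DNA-binding partner, was at 25.3 and 91.4 CPM, 3.61-fold apart (3.03 to 4.30). Irf7, which amplifies interferon transcription, showed the largest fold of the group, from 1.46 to 72.1 CPM, and Irf1, Sp100 and Nmi were also higher, at log2 1.71, 2.39 and 1.98. The constitutive factor Irf3 had a log2 change of 0.79 and Irf2, which can repress these genes, one of 0.88. Ifnar1 was at 185 and 120 CPM (log2 -0.62) and Ifnar2 at 46.6 and 60.4 (0.37), and the interferon-gamma receptor chains Ifngr1 and Ifngr2 had log2 changes of -0.84 and -0.28. The kinases Jak1 and Tyk2 had log2 changes of -0.28 and 0.47.

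Among the antiviral effectors, 37 of 42 measured genes were higher, none was lower, and the median log2 change was 2.49, with 38 higher after centring. Isg15, a ubiquitin-like modifier, was at 2.07 CPM in WT MEF (34 counts) and 228 in DR MEF (471 counts), 110-fold apart (95% interval 77.6 to 161). Ifit1, which binds viral RNA caps, was at 3.35 and 257 CPM, 76.7-fold apart (58.1 to 103), and Oasl2, of the oligoadenylate synthetase family, at 1.95 and 146 CPM. Mx2, an antiviral dynamin-like GTPase, rested on 7 counts in WT MEF and 138 in DR MEF, a ratio of 156 (73.9 to 396). Bst2 (tetherin), which holds budding virus at the cell surface, was at 6.77 and 219 CPM, and Ifit3 at 5.73 and 187 CPM. Trim30a was at 0.488 and 40.6 CPM, and its near-identical neighbour Trim30d had 0 counts in WT MEF and 50 in DR MEF, at least 132-fold higher against a floor of 3 counts. Reads can be divided between such copies in more than 1 way, so single values in the Trim30, Oas, Gbp, Ifi200 and H2 families are uncertain. Ifi202b, a member of the Ifi200 family, was at 7.92 and 196 CPM.

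The inducible GTPases, which act on the membranes around intracellular microbes, had the highest median of the interferon lists with 13 of 15 measured genes higher, also after centring, and a median log2 change of 3.13. Iigp1 was at 1.16 CPM in WT MEF and 62.9 in DR MEF, 54.3-fold apart (95% interval 33.4 to 93.1). Igtp was at 1.04 and 58.5 CPM and Irgm2 at 5.42 and 99.1 CPM. Gbp9, at 0.731 and 35.8 CPM, and Gbp6, at 2.13 and 55.1 CPM, are guanylate-binding proteins of 1 gene family. The mitochondrial fission GTPase Dnm1l, in the list as a dynamin relative, was at 154 and 118 CPM and is named here after its values were seen.

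Negative regulators of the pathway were higher as well, with 5 of 8 measured feedback genes called, 4 after centring, and none lower. Usp18, which removes Isg15 from proteins and blocks the receptor, was at 2.19 CPM in WT MEF and 99.6 in DR MEF, 45.4-fold apart (95% interval 31.7 to 66.6). Socs1 was at 1.71 and 15.0 CPM, Socs3 at 14.2 and 69.2 and the nuclease Trex1 at 6.46 and 29.0. Cish, at 9.63 and 20.3 CPM, lay on the 2-fold line with a log2 change of 1.00 and was 0.98 after centring. Tnfaip3, Pias1 and Ptpn2 were within 2-fold, and Tnfaip3 had a log2 change of -0.58.

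Genes of MHC class I presentation were higher in 15 of 19 measured cases, with a median log2 change of 1.53 that became 1.32 after centring, when 11 were higher. The classical heavy chains H2-K1 and H2-D1 stood at 19.9 and 46.2 CPM in WT MEF and at 144 and 277 CPM in DR MEF. H2-K1 was 7.25-fold apart (95% interval 6.18 to 8.51). The non-classical H2-T10 was at 0.792 and 34.3 CPM. Psmb8, an immunoproteasome subunit, was at 1.28 and 23.7 CPM, and Tap1, a subunit of the peptide transporter of the endoplasmic reticulum, at 11.2 and 76.9 CPM. Class II was nearly silent, with 1 of 7 genes measured (H2-DMa, log2 0.74).

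Across libraries these genes were high in 3 of the 5 fibroblast libraries shown. Isg15 was at 2.07 CPM in WT MEF, 228 in DR MEF, 5.00 with c-Jun, 249 with c-JunDN, 496 with Jdp2 and 0.736 in KSM DR. Stat2 was at 26.9, 359, 33.0, 272, 419 and 15.1 CPM in the same order, and Iigp1 at 1.16, 62.9, 0.500, 52.9, 342 and 0. The c-Jun fibroblasts, which also received a construct, and KSM DR, which received DR with the reprogramming factors, thus lay nearer to WT MEF than to DR MEF for these 3 genes. The summed CPM of the antiviral effector list was 1061 in WT MEF, 4338 in DR MEF, 928 with c-Jun, 4218 with c-JunDN, 8643 with Jdp2 and 1091 in KSM DR. That of the inducible GTPases was 297, 873, 150, 850, 2515 and 149 CPM. These GTPase sums include the mitochondrial fission gene Dnm1l, whose levels in WT MEF and DR MEF are given above. Ifi202b departed from this order, at 7.92, 196, 107, 95.2, 50.0 and 9.57 CPM, and so did Socs3, at 14.2, 69.2, 55.5, 15.2, 17.0 and 18.8 CPM.

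**Figure D3:**
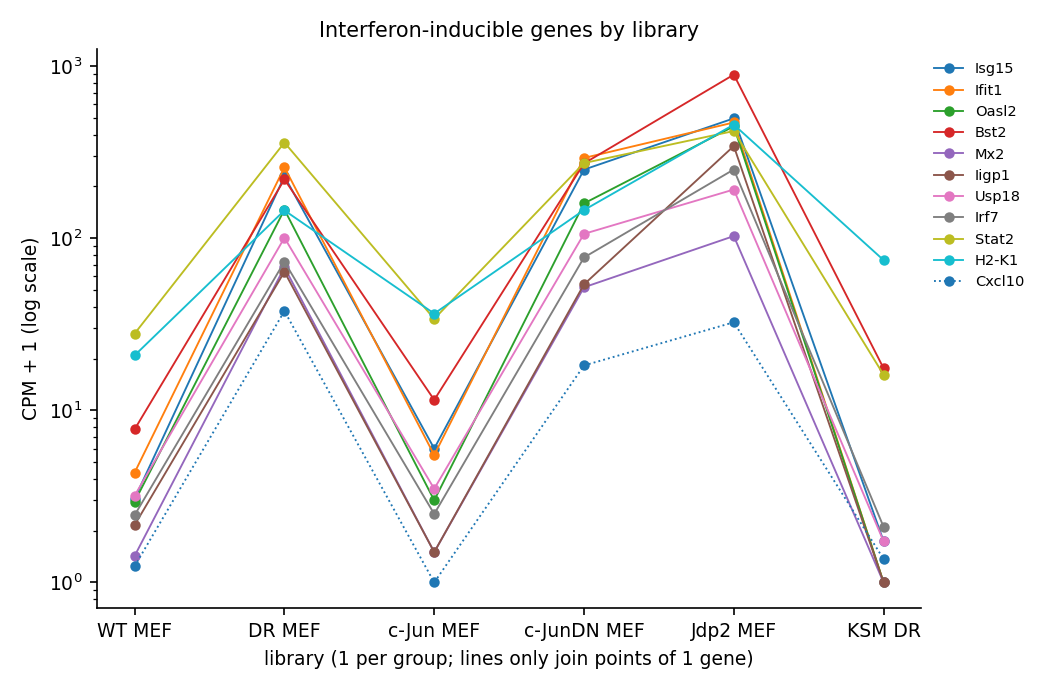
CPM + 1 (y axis, log scale) of 11 interferon-inducible genes in 6 libraries (x axis), with lines that only join the points of 1 gene. DR MEF, c-JunDN MEF and Jdp2 MEF are high and WT MEF, c-Jun MEF and KSM DR are low, for example 228, 249 and 496 against 2.07, 5.00 and 0.736 CPM for Isg15.

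Neighbouring immune programs moved in part. Of 10 measured complement genes 6 were higher, 7 after centring, and 1 (C1qb) was lower. The C1 inhibitor Serping1 was at 22.5 CPM in WT MEF and 115 in DR MEF, and the protease C1s at 17.2 and 85.1 CPM. C4b, a complement component with a near-identical copy, had a log2 change of 2.29, and 2.79 after centring. Of 15 measured NF-kB genes 4 were higher, 3 after centring, and none was lower, among them the adhesion molecule Icam1 at 7.31 and 45.5 CPM and the co-regulator Bcl3 at 5.30 and 19.3 CPM. The feedback inhibitor Nfkbia, at 9.51 and 19.8 CPM, had a log2 change of 0.99. Of 13 measured chemokines and cytokines 6 were higher and 2 lower, and after centring 3 were higher and 0 lower. The monocyte chemokines Ccl7 and Ccl2 were at 26.5 and 35.1 CPM in WT MEF and at 96.2 and 91.4 in DR MEF. Unlike the interferon genes they were low in the fibroblasts with c-JunDN, at 18.5 CPM for Ccl7 and 30.8 for Ccl2, and Ccl7 was at 15.0 CPM with Jdp2. After centring Ccl2 was within 2-fold, at 0.58.

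Of 17 measured cell-death genes tied to interferon, 6 were higher and 2 lower, and after centring 5 and 2. Casp4, the inflammatory caspase that senses lipopolysaccharide, was at 1.28 CPM in WT MEF and 14.0 in DR MEF. The p53 target Bbc3 (PUMA), which promotes apoptosis, was at 5.49 and 35.8 CPM, the death receptor Fas at 9.69 and 32.9 and Bax at 63.4 and 177. Bax was within 2-fold after centring, at 0.69. The survival gene Bcl2 was lower, at 22.2 and 5.32 CPM. Among other p53 targets, Mdm2 was at 221 CPM in both libraries and Cdkn1a at 423 and 573 CPM, both named after their values were seen. Of 25 measured genes in the list of CDK inhibitors and p53 targets, 3 were higher and 1 lower, before and after centring. The median log2 change of that list was 0.09.

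**Figure D4:**
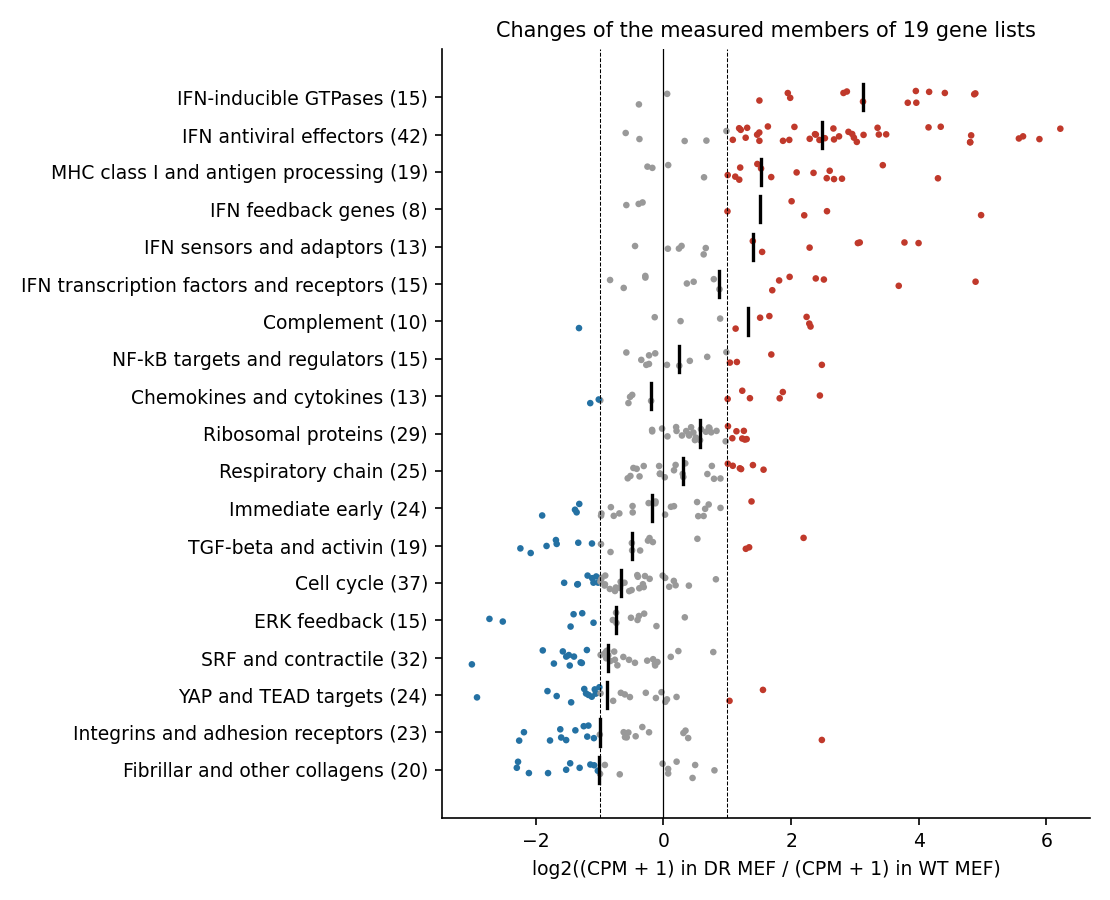
Log2 change (x axis) of every measured member of 19 gene lists (rows, with the number measured). Red points were at least 2-fold higher in DR MEF, blue points at least 2-fold lower and grey points neither, and black bars are list medians, which run from 3.13 for the inducible GTPases to -1.01 for the collagens.

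On the other side, the genes lower in DR MEF were led by growth-state, adhesion and contractile genes. The named genes with the largest fall included Amd1, Rsc1a1, Gjb2, Cdh10, Ptgs2, Raet1e, Zfp97, Ccbe1, Nipal1, Gpr149, Styk1, Stc1, Sprr2k and Acta1. Among them 5 had 0 counts in DR MEF, where WT MEF had 919 for Amd1, 298 for Rsc1a1, 148 for Raet1e, 143 for Zfp97 and 117 for Sprr2k. Against the floor of 3 counts Amd1 was at least 38.6-fold lower and Rsc1a1 at least 12.5-fold lower. Amd1 was at 0 in all 4 fibroblast libraries with a construct and at 25.4 CPM in KSM DR. Amd1, Raet1e, Zfp97 and Sprr2k have near-identical relatives and Rsc1a1 overlaps another gene, so how reads were assigned can set these 5 values.

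Ptgs2, the inducible cyclooxygenase, was at 382 CPM in WT MEF and 36.3 in DR MEF, 10.5-fold lower (95% interval 8.39 to 13.4), and the phospholipase Pla2g4a, which supplies its substrate, at 204 and 55.6 CPM. The other 10 measured prostaglandin genes stayed within 2-fold, also after centring. Gjb2, a connexin, had 919 counts in WT MEF and 6 in DR MEF, 19.3-fold lower (8.83 to 52.7), and Stc1, a secreted glycoprotein hormone, was at 43.8 and 4.35 CPM. Gpr149, at 32.7 CPM in WT MEF, and Styk1, at 19.8, were below 4 CPM in each fibroblast library with a construct.

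Of 24 measured YAP and TEAD targets 11 were lower and 2 higher, with a median log2 change of -0.89, but 4 were lower and 1 higher after centring on length, with a median of -0.45. Ctgf, the connective tissue growth factor, was at 1562 CPM in WT MEF and 205.5 in DR MEF, 7.60-fold lower (95% interval 6.91 to 8.39). Ankrd1 was at 74.1 and 20.3 CPM and Tgfb2 at 144 and 44.5. Igfbp3 went the other way, at 204.5 and 605 CPM. Ankrd1 was highest with c-Jun, at 166 CPM, and Ctgf reached 242 CPM with c-Jun, 478 with c-JunDN and 301 with Jdp2.

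Of 32 measured SRF and contractile genes 11 were lower and none was higher, with a median log2 change of -0.87, and after centring 12 were lower with a median of -0.82. Acta1, skeletal actin, was at 123 CPM in WT MEF and 14.5 in DR MEF, 8.49-fold lower (95% interval 5.93 to 12.6). Across the other libraries it was at 13.5 with c-Jun, 173 with c-JunDN and 1.84 in KSM DR, and it had 3 counts with Jdp2. Acta2, smooth muscle actin, was at 6522 and 2841 CPM, Fhl1 at 587 and 158 and calponin Cnn1 at 288 and 102.5. The non-muscle myosin chains Myh9 and Myh10 were both lower, with Myh9 at 5196 and 1808 CPM and Myh10 at 1978 and 663. After centring Myh9 and Myh10 were within 2-fold, at -0.93 and -0.98. Desmin (Des) was at 28.3 and 49.3 CPM, a change within 2-fold. In a mixed culture, fewer cells of a type and less RNA per cell cannot be told apart.

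The promoters of 3 of the lower genes of this list are shown because they carry the CArG box, the site that SRF binds, in capitals. Vcl, vinculin of focal adhesions, is shown for its match and was at 2502 CPM in WT MEF and 904 in DR MEF. It and the choice of these 3 were made after the values were seen.
Acta1 (chr8:123894776-123895025, minus strand): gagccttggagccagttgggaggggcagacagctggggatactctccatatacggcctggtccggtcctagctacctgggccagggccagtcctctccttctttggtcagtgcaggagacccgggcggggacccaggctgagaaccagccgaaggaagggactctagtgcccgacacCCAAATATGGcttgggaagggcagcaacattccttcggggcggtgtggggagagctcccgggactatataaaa
Fhl1 (chrX:56779433-56779682, plus strand): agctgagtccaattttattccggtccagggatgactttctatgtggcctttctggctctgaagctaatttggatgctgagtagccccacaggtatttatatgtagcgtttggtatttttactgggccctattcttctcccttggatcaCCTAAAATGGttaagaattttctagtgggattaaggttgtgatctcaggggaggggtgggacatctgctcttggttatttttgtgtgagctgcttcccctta
Vcl (chr14:20929148-20929397, plus strand): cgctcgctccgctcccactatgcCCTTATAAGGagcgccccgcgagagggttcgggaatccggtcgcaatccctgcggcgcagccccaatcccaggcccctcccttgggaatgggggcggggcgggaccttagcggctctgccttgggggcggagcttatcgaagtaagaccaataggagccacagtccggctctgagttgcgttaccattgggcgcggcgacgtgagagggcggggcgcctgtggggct

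A CArG box, which reads the same pattern on both strands, was found in the window of 10 of the 26 SRF and contractile genes with a promoter in the table, against 1.81% of all genes there. Since the list was drawn up of known SRF targets, this describes the list and not its change. Among all genes called lower the share was 18 of 790 (2.28%) and among those called higher 3 of 713 (0.421%). Fhl1 has a second promoter in the table, without a match in its 250 bases, and Ctgf was not matched there.

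Collagens and adhesion receptors also held many lower members. Of 20 measured collagens 10 were lower and none higher, and after centring 5 were lower and 2 higher, with the median moving from -1.01 to -0.46. Col1a1 was at 25089 and 11350 CPM, while Col3a1 was at 6528 and 6875. The change of Col1a1 was -1.14, and -0.81 after centring. Col10a1, of hypertrophic cartilage, and Col8a2 were lower at 34.8 and 48.4 CPM in WT MEF and 6.29 and 9.19 in DR MEF. Of 23 measured integrins and adhesion receptors 11 were lower and 1 (Icam1) was higher, and after centring 8 were lower and 1 higher. Itgb1, the beta chain shared by most matrix integrins, was at 4388 and 1445 CPM, Itgav at 1031 and 300.3, Itga6 at 82.7 and 17.4 and the adhesion molecule Ncam1 at 798 and 166.

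Of 24 measured elastic fibre and cross-linking genes 2 were higher and 5 lower, and after centring 2 and 4. Before centring, 9.56% of all measured genes were higher and 10.4% lower. Elastin (Eln) was at 431 CPM in WT MEF and 54.6 in DR MEF, 7.88-fold lower (95% interval 6.55 to 9.58), and ranged from 5.00 CPM with c-Jun to 5963 with Jdp2. Ltbp1, which holds latent TGF-beta in the matrix, was at 1219 and 252 CPM, while the microfibril genes Mfap2 and Mfap4 were higher, at 46.9 and 103 CPM in WT MEF and 118 and 243 in DR MEF. Cd44, the hyaluronan receptor, was at 1300 and 183 CPM, 7.11-fold lower (6.43 to 7.90). The small proteoglycans Lum and Dcn were higher, at 44.4 and 98.7 CPM in WT MEF and 160 and 318 in DR MEF, as was fibulin-1 (Fbln1), from the basement membrane list, at 55.6 and 351. Of 23 measured glycoproteins and proteoglycans 8 were higher and 4 lower, and after centring 9 and 2.

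**Figure D5:**
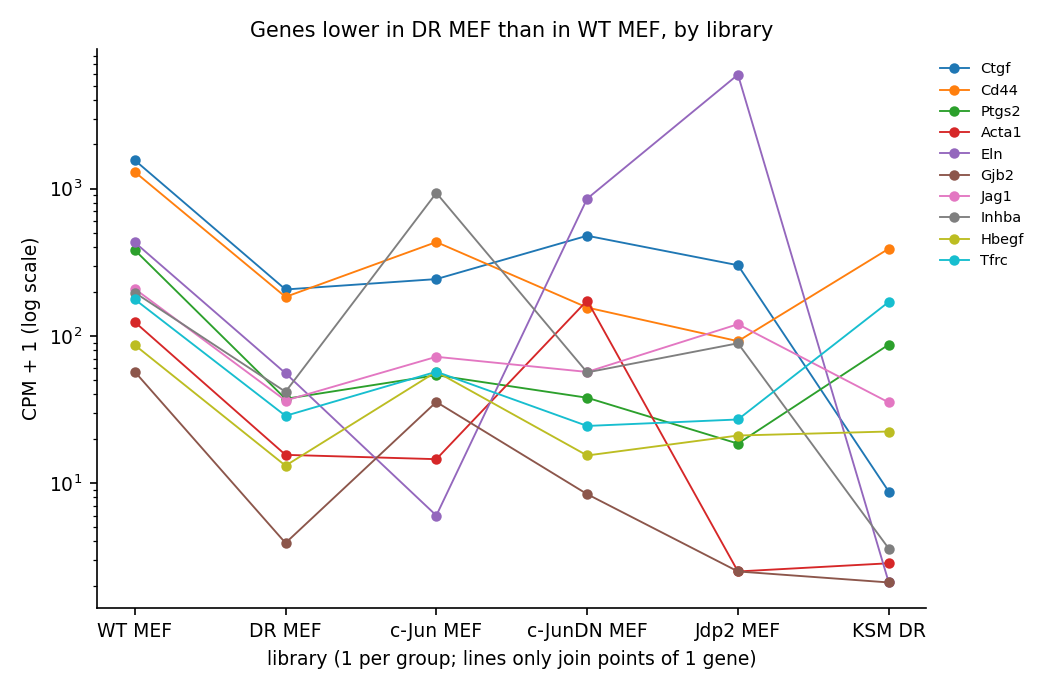
CPM + 1 (y axis, log scale) of 10 genes lower in DR MEF than in WT MEF, in 6 libraries (x axis), with lines that only join the points of 1 gene. Each is lower in DR MEF than in WT MEF, and their order across the other libraries differs: Inhba is at 935 CPM with c-Jun and 55.4 with c-JunDN, and Eln at 5.00 and 855. Jag1 and Tfrc were added after their values were seen.

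Of 19 measured TGF-beta and activin genes 7 were lower and 3 higher, and centring left both numbers as they were. The activin subunit Inhba was at 196 CPM in WT MEF and 40.6 in DR MEF, Tgfb3 at 436 and 122, and the feedback genes Skil and Smad7 at 208 and 76.8 in WT MEF and 48.4 and 23.2 in DR MEF. Gdf15, a stress-induced member of the family, was higher, at 1.65 and 11.1 CPM. Of 15 measured ERK feedback genes 6 were lower, 4 after centring, and none higher, among them the EGF receptor ligands Hbegf, at 85.6 and 12.1 CPM, and Ereg, at 57.3 and 9.19 CPM, and the phosphatase Dusp4, at 45.5 and 16.0 CPM. Fosl1, an AP-1 gene downstream of ERK, was at 13.8 CPM in WT MEF (226 counts) and 1.93 in DR MEF (4 counts). Of 24 measured immediate early genes 4 were lower, with Egr1 at 243 and 92.4 CPM, and only Jund was higher, at 50.6 and 133.5. After centring 5 were lower and 2 higher.

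Of 37 measured cell cycle genes 8 were lower and none was higher, with a median log2 change of -0.67, and 4 were lower after centring. The D-type cyclin Ccnd2 was at 2712 CPM in WT MEF and 922 in DR MEF and Ccnd1 at 622 and 286. Top2a and Rrm1, which act in dividing cells, were at 218 and 262 CPM in WT MEF and 95.3 and 103 in DR MEF. The CDK inhibitor Cdkn1c (p57) was higher, at 46.8 and 168 CPM.

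Lists of short housekeeping transcripts held rises before centring on length and none after it. Such short genes help set the medians of their own length bins. A rise of their own was therefore not tested apart from the slope. Of 29 measured ribosomal protein genes 7 were higher, with a median log2 change of 0.57, and 0 after centring, with a median of -0.05. Of 25 respiratory chain genes 6 were higher and 0 after centring. Rplp1, for example, had a log2 change of 1.30 that became 0.53. The metallothioneins Mt1 and Mt2, which bind zinc, are also short, and stayed higher, at 18.0 and 12.6 CPM in WT MEF and 107 and 90.4 in DR MEF, with centred log2 changes of 1.73 and 1.98.

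Ddit3 (CHOP) was the single higher gene of 25 in the ATF4 and unfolded protein list, at 24.0 CPM in WT MEF and 101 in DR MEF, while 6 were lower, among them the serine and asparagine enzymes Psat1, at 506 and 211 CPM, and Asns, at 275 and 120 CPM. After centring 1 was higher and 3 were lower. Of 17 measured NRF2 and metallothionein genes 5 were higher and 2 lower, and after centring 3 and 1. The lipase Lpl was at 33.4 and 223 CPM and the fatty acid carrier Fabp4, also an adipocyte marker as Lpl is, at 0.488 and 6.29. In the fatty acid list 3 of 18 measured genes were higher and none lower, and after centring 4 were higher. In glycolysis the isoenzymes Eno2 and Aldoc were higher, at 13.3 and 1.58 CPM in WT MEF and 83.2 and 10.2 in DR MEF, and hexokinase Hk2 was lower, at 124 and 31.9. Of 20 measured glycolysis genes 2 were higher and 1 lower, with the same counts after centring. The count of rises lay near the share over all measured genes, 9.56% before centring. The transcription factor Cebpd was at 7.98 and 66.3 CPM and the Wnt antagonist Sfrp2 at 10.5 and 60.9.

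Of 27 measured matrix proteases and inhibitors 3 were higher and 6 lower, both before and after centring. For scale, 9.56% of all measured genes were higher and 10.4% lower before centring. The macrophage elastase Mmp12 was higher, at 0.609 CPM in WT MEF and 7.25 in DR MEF, while the gelatinase Mmp9, at 18.5 and 2.90 CPM, the inhibitor Timp3, at 2101 and 702, and the urokinase Plau, at 158 and 58.0, were lower. Of 25 measured HOX genes 5 were higher and none lower, led by Hoxd4 at 1.04 and 11.1 CPM, which passed the filter only through DR MEF. Of 17 measured imprinted genes 5 were higher, among them Dlk1 at 107 and 311 CPM, and none was lower. Both lists had the same counts after centring. The shares over all measured genes before centring, 9.56% higher and 10.4% lower, apply here too. None of 7 measured S100 genes was called, and 1 was lower after centring, while of 23 lysosome genes 1 was higher, and 3 after centring.

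Fibroblast identity was present on both sides. All 14 fibroblast markers were measured, 3 were higher (Lum, Dcn and Twist2), 3 lower (Col1a1, Thy1 and Fap), or 3 and 2 after centring, and their summed level was 83646 CPM in WT MEF and 50726 in DR MEF. Markers of blood cells were low: the 18 macrophage markers in the table summed to 109 and 129 CPM, the 11 lymphocyte markers to 2.07 and 0.967 CPM and the 10 erythroid markers to 0.609 and 2.42 CPM. Of 9 measured macrophage markers 4 were lower (Mrc1, C1qb, Csf1r and Emr1), 1 after centring, and none higher, and Ptprc, the pan-leukocyte marker, was at 1.40 and 2.42 CPM. The lower ones rest on 4 to 9 counts in DR MEF. Of 7 measured mesothelial markers 4 were higher, 3 after centring. Upk3b was at 1.46 and 12.1 CPM, Lrrn4 at 0.366 and 8.22 and Wt1 at 0.914 and 6.77. Upk3b, Lrrn4 and Wt1 were under the level for measured genes in WT MEF and passed the filter only through DR MEF. The filter itself thus favoured rises in this count. The mesothelial list summed to 32.4 and 73.0 CPM. The endothelial markers summed to 175 and 109 CPM, with Cdh5 at 0 in both libraries and Pecam1 at 0 in DR MEF, and the keratinocyte markers to 16.6 and 9.19 CPM. The pericyte and smooth muscle list, with 4 of 8 measured genes lower and 3 after centring, summed to 7403 and 3317 CPM. Most of both sums was Acta2, and the other 4 measured genes, Des and Notch3 among them, stayed within 2-fold. The adipocyte list, with 2 of 4 measured genes higher before and after centring, summed to 43.5 and 241 CPM. Most of both sums was Lpl, and 6 of the 10 adipocyte markers had 0 counts in both libraries. Fabp4, the other higher one, passed the filter only through DR MEF. The neural and glial markers summed to 366 and 158 CPM, with 1 of 3 measured genes lower and none higher. The chondrocyte markers summed to 162 and 70.1 CPM. Of 3 measured chondrocyte markers 1 was higher and 1 lower, and after centring 2 and 1. The Y-linked genes Ddx3y, Eif2s3y, Kdm5d and Uty were read in both libraries. The part of these other cells in the differences above was not tested.

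None of the factors introduced elsewhere in the series marked DR MEF. Jun was at 61.1 CPM in WT MEF and 88.5 in DR MEF, against 11965 in the c-Jun fibroblasts, and Jdp2 at 58.8 and 76.9, against 7226 in the Jdp2 fibroblasts. Klf4 was at 81.9 and 120 CPM and Myc at 49.0 and 30.0. Pou5f1 (Oct4) was at 0.0609 CPM in WT MEF (1 count) and 2.42 in DR MEF (5 counts), a ratio of 39.7 whose counting interval runs from 4.44 to 1876. Pou5f1 thus stayed under the level for measured genes in both libraries, as did Sox2.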

How the data were processed

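RNA was extracted with Trizol and made into libraries with a TruSeq kit, per the labels. The authors deposited RSEM expected counts (RSEM 1.1.21, mm9, per the submitters' processing notes) for 12 RNA libraries that share 1 table of 20325 gene names, without a header. The RNA aligner is not given in the sources used here. The second deposited value of each gene is the authors' fraction of transcripts, which sums to 1 per library and was scaled here to TPM for an alternative and for relative effective length (count over fraction). Counts were rounded and scaled with TMM factors from edgeR 4.0.16 in R 4.3.3 over the 12 libraries (0.766 for WT MEF, 0.987 for DR MEF). Genes with 5 CPM in 1 of the 2 libraries were measured, changes used a pseudocount of 1 CPM, and calls were made at 2-fold. Intervals are exact conditional binomial 95% intervals of the ratio and cover counting error only. A gene at 0 is bounded by 3 counts, and a ratio resting on 1 to 3 counts is given with its interval. The scripts were tested on simulated data. With 1 library a side there was no test across samples and no p-value.

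Named genes are the 15 with the largest rise and fall among measured genes, per list the 6 members that differed most, all members of the interferon sensor, factor, ligand and feedback lists and the marker lists, and the 10 with the highest CPM. Unnamed gene models were left out, and the name patterns for them were extended after names were seen. The genes, the 63 lists (19 listed symbols are absent from the table) and the rule were chosen with earlier results of these data known. Promoters and their motifs come from RefSeq (GRCm38.p6), matched by symbol for 7915 of 10964 measured genes. Scaling, filter, pseudocount, TPM and depth were varied in 11 ways, and centring on length was added after the data were seen. The Oct4 fibroblast library, made on another annotation, and the immunoprecipitation samples were not analysed here. Some named genes are left out of the text.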

Additional observations from a re-analysis of the deposited data

How the results depend on the processing

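The comparison kept its direction under each alternative for every named gene called, up to 282 genes. With total-count scaling 1880 genes were higher and 462 lower, since that scaling moves the median measured gene by 0.355 on the log2 scale, so 80.3% of calls were rises against 47.8% with TMM. Centring on length, chosen after the data were seen, gave 1004 higher and 623 lower (61.7% rises) and kept 223 of the 282 named genes past 2-fold. A filter of 20 CPM left 8107 measured genes, with 587 higher and 916 lower (39.1% rises). It thus removed a larger part of the rises than of the falls. A pseudocount of 5 left 610 higher and 836 lower. The other alternatives stayed within 1.5-fold of both counts, including DESeq2 size factors (1112 higher, 1041 lower) and WT MEF thinned to the depth of DR MEF (1158 and 1211). Without a filter the median log2 change of the list endothelial turned from -1.21 to 0.0755 and the median log2 change of the list keratinocyte from -2.50 to 0.20, since genes with few counts then enter. No paired analysis was possible because each group has 1 library. Depth limits DR MEF, where 3 counts are 1.45 CPM.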

Other observations

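Several groups outside the lists were chosen after their values were seen and are given as values only. In the Notch pathway, which cells use to signal to neighbours, the ligand Jag1 was at 208 CPM in WT MEF and 35.3 in DR MEF, 5.88-fold lower (95% interval 4.67 to 7.52). Its target gene Hey1 had 113 counts in WT MEF and 0 in DR MEF, at least 4.75-fold lower against 3 counts, and Hey2 and Heyl had 114 and 125 counts in WT MEF and 1 each in DR MEF. The receptors Notch1, Notch2 and Notch3 had log2 changes of 0.26, -0.63 and 0.36, and the target Hes1 one of -0.01. In iron handling, the transferrin receptor Tfrc, which imports iron, was at 176 and 27.6 CPM, and the storage subunits Fth1 and Ftl1 at 414 and 1351 CPM in WT MEF and 854 and 2490 in DR MEF. Centring on length took the change of Fth1 from 1.04 to 0.27 and that of Tfrc from -2.63 to -2.20.

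The surface antigens Ly6a (Sca-1) and Ly6c1 were higher in DR MEF than in any of the other 5 libraries shown. Ly6a was at 45.8 CPM in WT MEF, 484 in DR MEF, 46.5 with c-Jun, 29.1 with c-JunDN, 53.5 with Jdp2 and 83.6 in KSM DR. Ly6c1 was at 6.22, 125, 7.50, 9.44, 7.99 and 14.7 CPM in the same order. Apod, a lipocalin, was at 2.01, 49.8, 4.00, 35.3, 89.9 and 39.8 CPM.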
